A study of Mus musculus with 4 samples.

Results

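Genes of the mesothelium and of the stromal extracellular matrix were followed in peritoneal cells of wild-type and LysM-St18flox mice. The members are 32 genes given by name, of 22911 genes with a named probe on the array. They fall into 11 mesothelial epithelial genes (keratins, uroplakins, mesothelin, Wt1, Gpm6a, Lrrn4 and Muc16) and 21 matrix genes (collagens, proteoglycans, other matrix proteins, growth factor receptors and binding proteins, Cyp1b1 and Cav1). The set was proposed with results of these arrays in view, so the genotype and time values below describe it and no test is attached to them. Of the 32 members, 31 had a probe and 1, Muc16, was matched by none. A probe was well above background on all 4 arrays for 16 members (6 mesothelial and 10 matrix), on 1 to 3 arrays for 13, and on no array for 2, Gpm6a and Igfbp5.

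The cells are labelled peritoneal macrophages, and the sample titles read PEC, which commonly stands for peritoneal exudate cells, a mixture that can hold other cell types. Per the labels, mice received 4% thioglycollate, a sterile irritant that recruits leukocytes to the peritoneum, and lavage fluid was taken after 3 days. The 4 groups are wild-type cells and LysM-St18flox cells, each at 0 h and after 3 h with lipopolysaccharide (LPS), the bacterial outer membrane component that activates Toll-like receptor 4. Each group is 1 array, labelled as cells of a mouse, so no value here has a replicate check. LysM names the lysozyme promoter, commonly used to drive Cre recombinase in macrophages and neutrophils. Whether the wild-type mice carried any allele, the ages of the mice, the dose of LPS and any step that separated cell types are not given in the sources used here.

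The mesothelium is a single layer of flattened epithelium that lines the peritoneal cavity. Its cells join epithelial features, such as keratin filaments, with the transcription factor WT1 and the surface protein mesothelin. Under it lies connective tissue in which fibroblasts secrete fibrillar collagens, decorin and other matrix proteins. Leukocytes are the usual content of a peritoneal lavage, and transcripts of the lining can enter it with detached cells. In a bulk RNA sample, fewer cells of a type and less RNA per cell cannot be told apart.

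Promoter windows of a few members are shown so that the genes described below can be compared in sequence as well as in signal. Col1a2 and Col3a1 encode chains of fibrillar collagens, Krt8 and Krt18 encode the partners of one keratin filament, and Cyp1b1 is among the members that were 2-fold apart by both genotype and LPS. Each window runs from 250 bases before to 50 bases after the annotated start, 5′ to 3′ on the gene's strand, from RefSeq with build GRCm38.p6. The windows lie at chr6:4505368-4505667 (+) for Col1a2, chr1:45311288-45311587 (+) for Col3a1, chr15:102004293-102004592 (-) for Krt8, chr15:102027966-102028265 (+) for Krt18 and chr17:79715012-79715311 (-) for Cyp1b1. Capitals mark every match, on either strand, to 4 short motifs. CCAAT is the box bound by the factor NF-Y, while TATAAA is a form of the box that helps place transcription starts. GGGCGG is bound by Sp-family factors, and GCGTG is the core of the element bound by the aryl hydrocarbon receptor.
Col1a2: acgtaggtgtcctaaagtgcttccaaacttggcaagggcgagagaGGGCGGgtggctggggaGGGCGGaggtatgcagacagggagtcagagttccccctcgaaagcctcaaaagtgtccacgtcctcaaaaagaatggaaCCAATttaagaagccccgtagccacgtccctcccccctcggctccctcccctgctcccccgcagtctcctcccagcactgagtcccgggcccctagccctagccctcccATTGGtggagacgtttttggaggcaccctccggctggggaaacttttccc
Col3a1: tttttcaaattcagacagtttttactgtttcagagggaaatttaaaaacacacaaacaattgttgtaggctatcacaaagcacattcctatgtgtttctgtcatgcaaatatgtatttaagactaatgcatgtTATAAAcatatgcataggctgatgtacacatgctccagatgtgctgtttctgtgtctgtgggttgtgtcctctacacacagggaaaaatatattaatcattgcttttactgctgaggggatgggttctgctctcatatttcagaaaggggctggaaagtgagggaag
Krt8: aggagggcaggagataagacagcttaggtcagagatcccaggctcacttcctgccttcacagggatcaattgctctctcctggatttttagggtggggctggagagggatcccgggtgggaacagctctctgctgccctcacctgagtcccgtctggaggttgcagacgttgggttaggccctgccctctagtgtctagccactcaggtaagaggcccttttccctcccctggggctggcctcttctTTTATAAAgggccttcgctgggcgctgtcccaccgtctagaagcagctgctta
Krt18: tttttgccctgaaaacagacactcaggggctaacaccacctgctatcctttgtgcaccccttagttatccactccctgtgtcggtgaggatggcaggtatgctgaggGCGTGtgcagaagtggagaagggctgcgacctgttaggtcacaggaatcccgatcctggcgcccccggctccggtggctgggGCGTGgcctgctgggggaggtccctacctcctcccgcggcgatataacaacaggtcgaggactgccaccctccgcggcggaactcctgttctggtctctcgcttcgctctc
Cyp1b1: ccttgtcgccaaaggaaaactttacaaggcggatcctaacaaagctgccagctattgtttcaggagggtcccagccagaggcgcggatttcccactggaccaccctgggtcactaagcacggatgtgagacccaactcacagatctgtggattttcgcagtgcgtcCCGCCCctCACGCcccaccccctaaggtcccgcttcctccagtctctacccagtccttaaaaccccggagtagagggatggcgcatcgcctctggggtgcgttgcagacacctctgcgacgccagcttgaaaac

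The Col1a2 window held 4 matches, a GC box at 2 places and the CCAAT box at 2 places, once on each strand. The Col3a1 window held 1 match, to TATAAA. In the Krt8 window the 2 matches to TATAAA overlap on opposite strands, and the Krt18 window held GCGTG at 2 places. The Cyp1b1 window held 1 GC box and 1 GCGTG, both on the opposite strand. The table held 27 windows of 22 members. CCAAT was found in 2 of the 27 windows and in 37.4% of all 32851 windows of the same length, TATAAA in 5 of 27 and 13.6%, GGGCGG in 11 of 27 and 35.7%, and GCGTG in 7 of 27 and 32.4%. None of the 8 mesothelial windows held CCAAT. A match describes letters in a window and not a binding site.

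Signal is given throughout as the log2 processed spot signal minus the array's 75th percentile, called the normalized log2 signal. A gene is represented by the brightest of its probes. A difference was taken as measured where that probe was well above background on both arrays, and a gene was counted as higher or lower where the difference reached 2-fold, a log2 difference of 1. Where a probe was above background on 1 side only, the difference is given as a bound ("at least"). Levels of different genes cannot be ranked on this scale, since each probe has its own brightness.

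On each array of the series, 52.2% to 55.6% of spots passed the background flag and none was saturated. The median standard deviation of probes printed 10 times lay between 0.03 and 0.04 (log2), which covers spot error only. The wild-type 0 h array stood apart: the difference between 2 probes of a gene departed from the other arrays by a median of 0.392 there and by at most 0.161 elsewhere, over 4217 genes. It enters the genotype difference at 0 h and the wild-type LPS response, and neither the genotype difference at 3 h nor the LysM-St18flox response uses it. The St18 probe with signal was at -1.31 and -1.66 in wild-type cells and not well above background in LysM-St18flox cells. Where this probe lies relative to the floxed sequence was not analysed here. All 10 macrophage markers were well above background on every array, with median genotype differences of -0.27 at 0 h and -0.08 at 3 h. Lyz2, the gene whose promoter LysM names, was 2.29-fold higher with LysM-St18flox at 0 h and differed by -0.23 at 3 h.

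The mesothelial genes were lower in LysM-St18flox cells at both times, and so were the matrix genes. At 0 h, 4 of the 6 measured mesothelial genes and 8 of the 11 measured matrix genes were at least 2-fold lower, and no member was higher by as much. Among all 12679 genes measured at 0 h, 3.03% were lower and 3.04% higher by that margin. At 3 h the counts were 5 of 6 mesothelial and 10 of 14 matrix genes, again with no measured member higher by 2-fold, against 1.4% lower and 1.82% higher among 13049 genes. With bounds counted, 1 more member passed 2-fold at 0 h (Cyp1b1, lower), and 3 lower (Col6a2, Lum and Loxl1) and 1 higher (Postn) at 3 h. The shares of all genes were then 4.31% lower and 4.98% higher at 0 h, and 3.15% and 3.09% at 3 h. Every measured member was below 0 in both comparisons (17 at 0 h and 20 at 3 h), as were 53.1% of all measured genes at 0 h and 52.5% at 3 h, with 46.9% and 47.5% above 0. With normexp background correction, which adds an offset that draws dim spots together, 9 of 17 members at 0 h and 10 of 20 at 3 h were at least 2-fold lower. Msln, Upk1b and Col5a1 were no longer past 2-fold at either time, nor Krt8 and Fbn1 at 3 h. Because the members were chosen on these arrays, these counts restate their choice and support nothing beyond it.

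**Figure D1:**
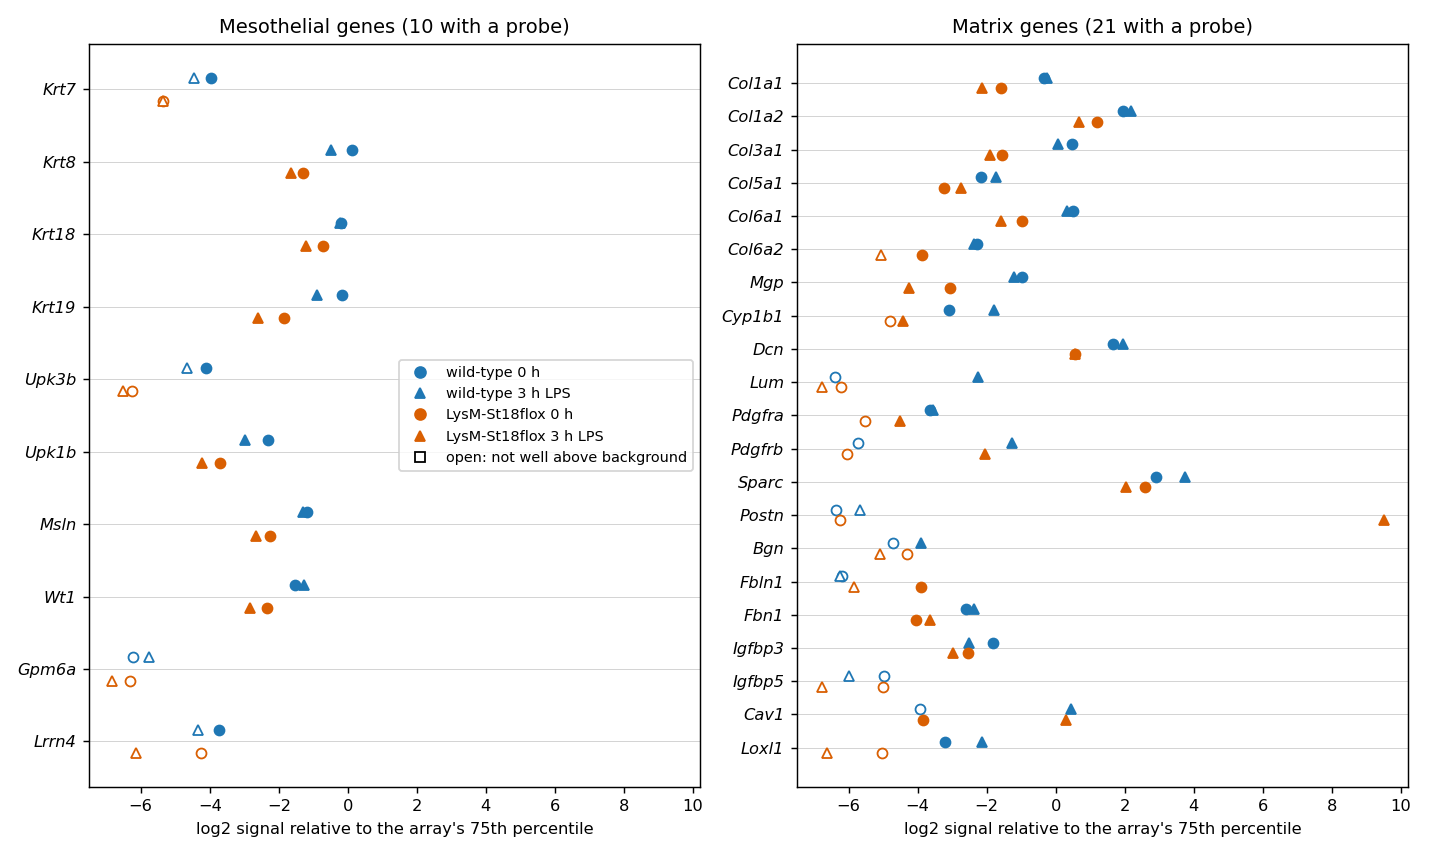
Normalized log2 signal (x axis) of the brightest probe of each member on the 4 arrays, mesothelial genes at left and matrix genes at right. Blue is wild-type, orange LysM-St18flox, circles 0 h, triangles 3 h with LPS, and open symbols are not well above background. For most rows with filled symbols the orange points lie left of the blue ones, Pdgfrb and Cav1 separate by time, and the Postn point at 9.51 stands alone.

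Among the keratins, which form the intermediate filaments of epithelia, Krt19 had normalized log2 signals of -0.16 and -0.89 in wild-type cells at 0 h and 3 h, against -1.85 and -2.60 in LysM-St18flox cells. Both LysM-St18flox arrays lay below both wild-type arrays, by 3.22-fold at 0 h and 3.25-fold at 3 h. Krt8, a type II keratin, read 0.12 and -0.48 in wild-type cells at 0 h and 3 h, against -1.30 and -1.64 in LysM-St18flox cells. The genotypes did not overlap, with Krt8 2.68-fold lower with LysM-St18flox at 0 h and 2.23-fold lower at 3 h. Krt18, the type I partner of Krt8, read -0.21 and -0.22 in wild-type cells, against -0.71 and -1.22 in LysM-St18flox cells. Its differences of -0.50 at 0 h and -0.997 at 3 h were both under 2-fold, although the partners differed in the same direction. Krt7, another type II keratin of simple epithelia, was well above background only at wild-type 0 h (-3.96), which gave a bound of 1.13-fold lower with LysM-St18flox.

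Msln encodes mesothelin, a surface glycoprotein used to mark mesothelial cells, and Wt1 a zinc finger transcription factor of the mesothelium. Msln had normalized log2 signals of -1.19 and -1.28 in wild-type cells at 0 h and 3 h, against -2.27 and -2.67 in LysM-St18flox cells. It was 2.11-fold lower with LysM-St18flox at 0 h and 2.62-fold lower at 3 h, with no overlap of the genotypes. Wt1 read -1.53 and -1.28 in wild-type cells, against -2.34 and -2.83 in LysM-St18flox cells. The genotypes differed by -0.82 at 0 h and by -1.55 at 3 h, so only the later one passed 2-fold.

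Uroplakins are membrane proteins of the urothelium that mesothelial cells also express. The brighter Upk1b probe read -2.31 and -2.97 in wild-type cells, against -3.70 and -4.22 in LysM-St18flox cells, 2.63-fold lower at 0 h and 2.38-fold lower at 3 h. With normexp the log2 differences of Upk1b were -0.84 and -0.59, both under 2-fold. The other Upk1b probe passed the background flag on none of the arrays. Upk3b was above background only at wild-type 0 h (-4.12), as was Lrrn4 (-3.74), a leucine-rich repeat membrane protein of mesothelial cells. The bounds for these genes at 0 h were 1.01-fold and 1.31-fold lower with LysM-St18flox. Of the 4 defining mesothelial markers, Msln and Wt1 were thus above background on every array, and Upk3b and Lrrn4 on 1 array close to the detection limit. The lowest normalized signal well above background was -4.14 on that array.

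The fibrillar collagens make up the tensile fibres of connective tissue. Col1a1 encodes the main chain of type I collagen, and each of its 2 probes is printed 10 times on the array. The brighter probe read -0.33 at wild-type 0 h (SD 0.06 over 10 spots), -0.25 at wild-type 3 h (SD 0.03 over 8 unflagged spots), -1.59 (SD 0.07 over 10) and -2.14 (SD 0.07 over 9) in LysM-St18flox cells at the same times. The spots of the genotypes did not overlap: at 0 h the wild-type spots spanned -0.38 to -0.23 and the LysM-St18flox spots -1.68 to -1.48. These are repeated prints on 1 array per group, so they show spot error and not the spread between mice. By this probe the genotypes differed by -1.26 at 0 h and by -1.89 at 3 h, and -1.06 and -1.76 by the other, which had not been used to represent the gene.

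Col1a2, the second chain of type I collagen, read 1.95 and 2.18 in wild-type cells at 0 h and 3 h, against 1.19 and 0.67 in LysM-St18flox cells. It was 1.69-fold lower with LysM-St18flox at 0 h and 2.85-fold lower at 3 h, less than Col1a1 at both times. Col3a1, the chain of type III collagen, read 0.47 and 0.06 in wild-type cells against -1.56 and -1.92 in LysM-St18flox cells, a 4.08-fold difference at 0 h and 3.94-fold at 3 h. Col5a1, of the type V collagen that nucleates fibrils, read -2.15 and -1.74 in wild-type cells, against -3.24 and -2.75 in LysM-St18flox cells. It was 2.13-fold lower at 0 h and 2.01-fold lower at 3 h, the latter just inside the 2-fold threshold. All 4 fibrillar collagen genes stood lower in LysM-St18flox cells at both times, by 1.69-fold to 4.08-fold.

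Type VI collagen forms beaded microfilaments around cells. Col6a1 read 0.49 and 0.32 in wild-type cells, against -0.98 and -1.59 in LysM-St18flox cells, 2.78-fold lower at 0 h and 3.76-fold lower at 3 h. Col6a2 read -2.29 and -2.37 in wild-type cells and -3.88 in LysM-St18flox cells at 0 h, with no signal well above background there at 3 h. The genotypes stood 3.02-fold apart at 0 h and at least 5.18-fold apart at 3 h, LysM-St18flox being lower. Both type VI chains thus stood apart by genotype at both times.

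Mgp encodes matrix Gla protein, an inhibitor of calcification, and had the lowest genotype difference of the measured members at both times. It read -0.97 and -1.21 in wild-type cells, against -3.05 and -4.24 in LysM-St18flox cells, so that it was 4.24-fold lower at 0 h and 8.15-fold lower at 3 h. With normexp the log2 difference of Mgp at 3 h was -1.95 in place of -3.03. The signal of the LysM-St18flox 3 h spot was 46.6 units, near the lowest signal counted as above background there (32.9 units). Dcn encodes decorin, a small proteoglycan that binds collagen fibrils. It read 1.65 and 1.95 in wild-type cells, against 0.55 and 0.56 in LysM-St18flox cells, 2.15-fold lower at 0 h and 2.61-fold lower at 3 h. Fbn1, the fibrillin of elastic microfibrils, read -2.60 and -2.38 in wild-type cells, against -4.05 and -3.66 in LysM-St18flox cells, 2.73-fold and 2.43-fold lower. Its other probe gave -1.12 at 3 h and was not above background at LysM-St18flox 0 h.

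Sparc encodes osteonectin, a collagen-binding glycoprotein, and its probes disagreed at 0 h. The brighter probe read 2.91 and 3.74 in wild-type cells, against 2.57 and 2.03 in LysM-St18flox cells, a genotype difference of -0.34 at 0 h and -1.71 at 3 h. The second probe read 1.15 and 0.70 in wild-type cells, against -0.39 and -1.11 in LysM-St18flox cells, differences of -1.54 and -1.81. At 3 h the probes gave nearly the same difference, and at 0 h, where the wild-type 0 h array enters, they did not. Igfbp3, a binding protein of insulin-like growth factors, read -1.81 and -2.50 in wild-type cells, against -2.55 and -2.99 in LysM-St18flox cells. With differences of -0.74 and -0.49 it stayed under 2-fold at both times, and its wild-type 3 h and LysM-St18flox 0 h signals nearly coincided.

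**Figure D2:**
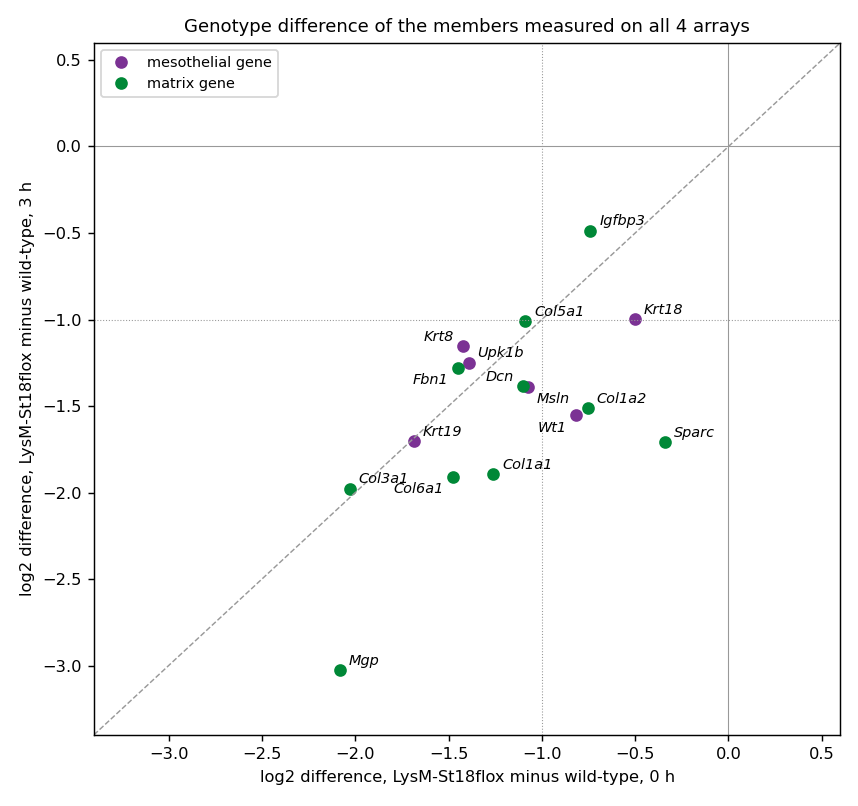
Log2 genotype difference (LysM-St18flox minus wild-type) at 0 h (x axis) against 3 h (y axis) for the 16 members well above background on all 4 arrays, purple mesothelial and green matrix. Dotted lines mark 2-fold, and the dashed line equal differences. All points lie below 0 on both axes, from -0.34 to -2.08 at 0 h and from -0.49 to -3.03 at 3 h, and Sparc and Mgp lie far below the dashed line.

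The genotype differences at 0 h and at 3 h share no array. The labels do not say whether both times of a genotype came from the same mouse, and the members were chosen on these arrays. The times can therefore not be taken as independent repeats. Over the 16 members on all 4 arrays, 11 were at least 2-fold lower at both times: Krt8, Krt19, Upk1b, Msln, Col1a1, Col3a1, Col5a1, Col6a1, Mgp, Dcn and Fbn1. Of these, Krt8, Upk1b, Msln, Col5a1 and Fbn1 did not pass 2-fold at both times with normexp. Col5a1 at 3 h was also under 2-fold with quantile normalization (-0.95) and in the deposited value table (-0.97). With the percentile over probes above background on all 4 arrays it was at -0.99. Among all 12344 genes measured on all 4 arrays, 0.454% were at least 2-fold lower at both times. By any amount, 16 of 16 members and 34.4% of those genes were lower at both times. Between the times, Pearson's r was 0.59 and Spearman's rho 0.51 over these 16 genes, which share the same 4 arrays and are not independent. The median of the 6 mesothelial genes was -1.23 at 0 h and -1.32 at 3 h, against medians of -0.03 and -0.01 over all measured genes. That of the 10 matrix genes was -1.18 and -1.61, and the ranges of the lists overlapped at both times (mesothelial -1.69 to -0.50 and -1.70 to -0.997, matrix -2.08 to -0.34 and -3.03 to -0.49).

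Cyp1b1, a cytochrome P450 expressed in stromal cells, differed by genotype and by time. It read -3.10 at wild-type 0 h and -1.79 at wild-type 3 h, was not well above background at LysM-St18flox 0 h, and read -4.44 at LysM-St18flox 3 h. It was thus at least 2.05-fold lower with LysM-St18flox at 0 h and 6.26-fold lower at 3 h, and 2.48-fold higher after LPS in wild-type cells. With normexp its log2 genotype difference at 3 h was -1.53 in place of -2.65. Loxl1 encodes a lysyl oxidase that crosslinks elastin. It read -3.20 and -2.13 in wild-type cells and was not above background in LysM-St18flox cells, which made it at least 1.91-fold lower at 0 h, and 6.10-fold lower at 3 h. Pdgfra, the platelet-derived growth factor receptor that marks fibroblasts, read -3.63 and -3.55 in wild-type cells and -4.51 at LysM-St18flox 3 h, a difference of -0.96 at 3 h. It was not above background at LysM-St18flox 0 h.

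Measured members past 2-fold after LPS were counted beside the shares of all genes, and members at a bound are given further below. In wild-type cells none of the 6 measured mesothelial genes reached 2-fold in either direction (median -0.35, range -0.73 to 0.25), and of 14 measured matrix genes 2 were at least 2-fold higher and none lower (median 0.15). Those were Cyp1b1 (1.31) and Loxl1 (1.06), and neither stayed past 2-fold with normexp background correction, which gave 0 such members. Of all genes measured in wild-type cells, 9.04% were higher and 11.6% lower by that margin. In LysM-St18flox cells none of the 6 mesothelial genes reached 2-fold (median -0.50, range -0.75 to -0.34), while 1 of 11 matrix genes was higher, Cav1, and 1 was lower, Mgp at -1.19 (median -0.44). The Mgp call was lost with normexp (-0.42), quantile normalization (-0.97), the deposited value table (-0.85) and a minimum of 50 units, which leaves Mgp out. The shares of all genes there were 8.12% and 8.97%, and the medians over all genes were -0.11 in wild-type and -0.09 in LysM-St18flox cells.

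**Figure D3:**
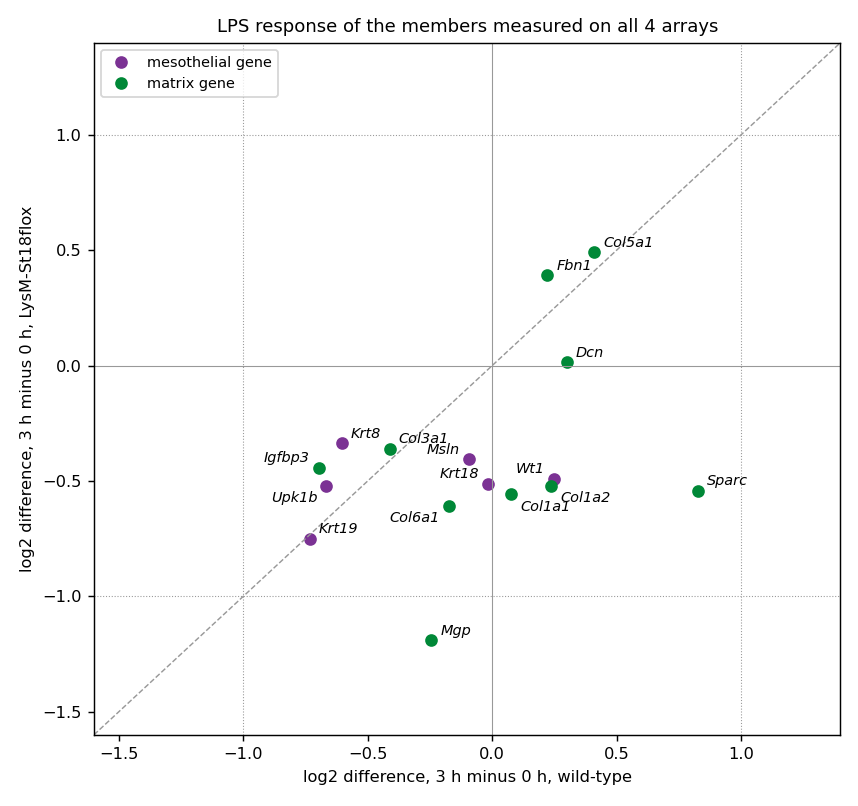
Log2 LPS response (3 h minus 0 h) in wild-type cells (x axis) against LysM-St18flox cells (y axis) for the 16 members well above background on all 4 arrays, purple mesothelial and green matrix. Dotted lines mark 2-fold and the dashed line equal responses. Points span -0.73 to 0.83 in wild-type and -1.19 to 0.49 in LysM-St18flox cells, and the mesothelial points lie at or below -0.34 on the y axis.

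Of the 10 matrix genes on all 4 arrays, 6 were above 0 after LPS in wild-type cells and 3 in LysM-St18flox cells. Of all measured genes, 43.2% were above and 56.8% below 0 in wild-type cells. In LysM-St18flox cells the shares were 43% and 57%. The LPS responses and the genotype differences use the same 4 arrays. The response of Sparc was 0.83 in wild-type and -0.54 in LysM-St18flox cells by the brighter probe, and -0.45 and -0.71 by the other, so its direction in wild-type cells depended on the probe. Col5a1 (0.41 and 0.49) and Fbn1 (0.22 and 0.39) were slightly higher at 3 h in both genotypes, while Krt19 (-0.73 and -0.75) and Upk1b (-0.67 and -0.52) were lower in both. All of these lie under 2-fold, and without replicates they cannot be set against the spread between mice.

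Cav1 and Pdgfrb separated by time in both genotypes, unlike the collagens and keratins beside them. Cav1 encodes caveolin-1, the coat protein of caveolae, found in endothelium, fibroblasts and other cells. Its brighter probe was not above background at wild-type 0 h and read 0.45 at wild-type 3 h, and it read -3.84 and 0.29 in LysM-St18flox cells at 0 h and 3 h. Counting bounds, 3 more members were at least 2-fold higher after LPS in wild-type cells (Lum, Pdgfrb and Cav1) and 2 in LysM-St18flox cells (Pdgfrb and Postn), against 10.6% and 9.33% of all genes. With bounds, 13.2% and 10.7% of all genes were lower. Cav1 was at least 20.8-fold higher after LPS in wild-type cells and 17.5-fold higher in LysM-St18flox cells (a log2 response of 4.13, and of 3.21 with normexp), and it differed by -0.16 between genotypes at 3 h. The second Cav1 probe was above background at 3 h alone, at -0.84 in wild-type and -0.97 in LysM-St18flox cells. Pdgfrb, the receptor that marks pericytes and fibroblasts, was likewise above background at 3 h alone, at -1.27 in wild-type and -2.06 in LysM-St18flox cells, by the 1 probe it has. It was at least 7.33-fold higher after LPS in wild-type and at least 4.21-fold higher with LysM-St18flox, with a genotype difference of -0.79 at 3 h.

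A further 4 members were well above background on 1 array only. Postn encodes periostin, a matrix protein of fibroblasts. Its brightest probe was not above background on 3 arrays and read 9.51 at LysM-St18flox 3 h, the highest of 56603 probes on that array, from 1 spot. Neither of the other 2 Postn probes was above background on any array. Its genotype bound at 3 h, at least 15460-fold higher with LysM-St18flox, rests on that spot, and no other probe of any gene was above background on that array alone by a log2 gap of 10 or more.

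Lum encodes lumican, a proteoglycan of the decorin family, and was above background only at wild-type 3 h (-2.27), which made it at least 5.56-fold lower with LysM-St18flox at 3 h and at least 3.67-fold higher after LPS in wild-type cells. Bgn, which encodes biglycan of the same family, was also above background only at wild-type 3 h (-3.90, bounds under 2-fold). Fbln1, which encodes the matrix glycoprotein fibulin-1, was above background only at LysM-St18flox 0 h (-3.90, bounds under 2-fold). Between 59 and 98 probes of an array were above background there alone and exceeded the other arrays by a log2 gap of 4 or more, so such single-array values were found on each array. Dcn, of the same family as Lum and Bgn, was above background on every array.

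Other genes of the same tissues were read from lists that do not hold the members. These lists, and the collagen processing list below, were also chosen with earlier results of these data known. Of 20 further mesothelial genes, 8 were not above background on any array, among them the transcription factor gene Bnc1. At 0 h 2 of the 9 measured ones were at least 2-fold lower, Tgm1 (-1.45) and Cldn15 (-1.17), and at 3 h none of 8 (median 0.01). Of all measured genes, 3.03% were lower by that margin at 0 h and 1.4% at 3 h. Krt14 (-0.77 at 0 h and -0.82 at 3 h) and Nkain4 (-0.66 and -0.62) were lower at both times, by less than 2-fold. Aldh1a2, which encodes a retinoic acid synthesizing enzyme, differed by 0.07 at both times. Ezr, which encodes the membrane linker ezrin, was 2.66-fold higher after LPS in wild-type and 2.91-fold higher with LysM-St18flox. By bounds at 3 h, Ildr2 was at least 2.33-fold lower with LysM-St18flox, Efemp1 1.74-fold and Cdh3 1.58-fold, and with bounds included the median of the list was -0.52. The difference between this list and the members was not tested.

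Among 25 further matrix genes, 10 were not above background on any array. At 0 h 4 of 13 measured were at least 2-fold lower and 1 higher, and at 3 h 6 of 15 lower and 1 higher. The shares of all measured genes were 3.03% lower and 3.04% higher at 0 h, and 1.4% and 1.82% at 3 h. The lower ones included Fbln2 (-1.77 and -1.84), which encodes fibulin-2, the growth factor binding protein gene Igfbp6 (-1.59 and -1.88) and Col6a3 (2.05-fold and 2.83-fold lower), the third chain of type VI collagen. The higher one at both times was Thy1 (1.02 and 1.18), which T cells also express. Vcan, which encodes the proteoglycan versican, was 11.3-fold higher after LPS in wild-type and 41.8-fold higher with LysM-St18flox, and the genotypes differed by -1.79 at 0 h and by 0.10 at 3 h.

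In the collagen processing list, 3 of 14 measured genes were at least 2-fold lower at 0 h, and 3 of 16 at 3 h, with none higher. Of all measured genes, 3.03% were lower and 3.04% higher at 0 h, and 1.4% and 1.82% at 3 h. Serpinh1, which encodes the collagen chaperone HSP47, read -0.13 and -0.73 in wild-type cells, against -2.10 and -2.67 in LysM-St18flox cells, 3.91-fold and 3.85-fold lower. Loxl2, a lysyl oxidase of collagen and elastin, was at -1.08 and -1.11. Pcolce, the enhancer of procollagen processing, was at -1.08 at 3 h. P4ha1 was at -1.05 at 0 h and -0.46 at 3 h, and Plod1 at -0.99 and -0.51. Plod3 and P4hb were not at least 2-fold apart at either time. Lox, the crosslinking lysyl oxidase, was above background at 3 h alone, at least 4.34-fold higher after LPS in wild-type and 3.10-fold higher with LysM-St18flox.

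**Figure D4:**
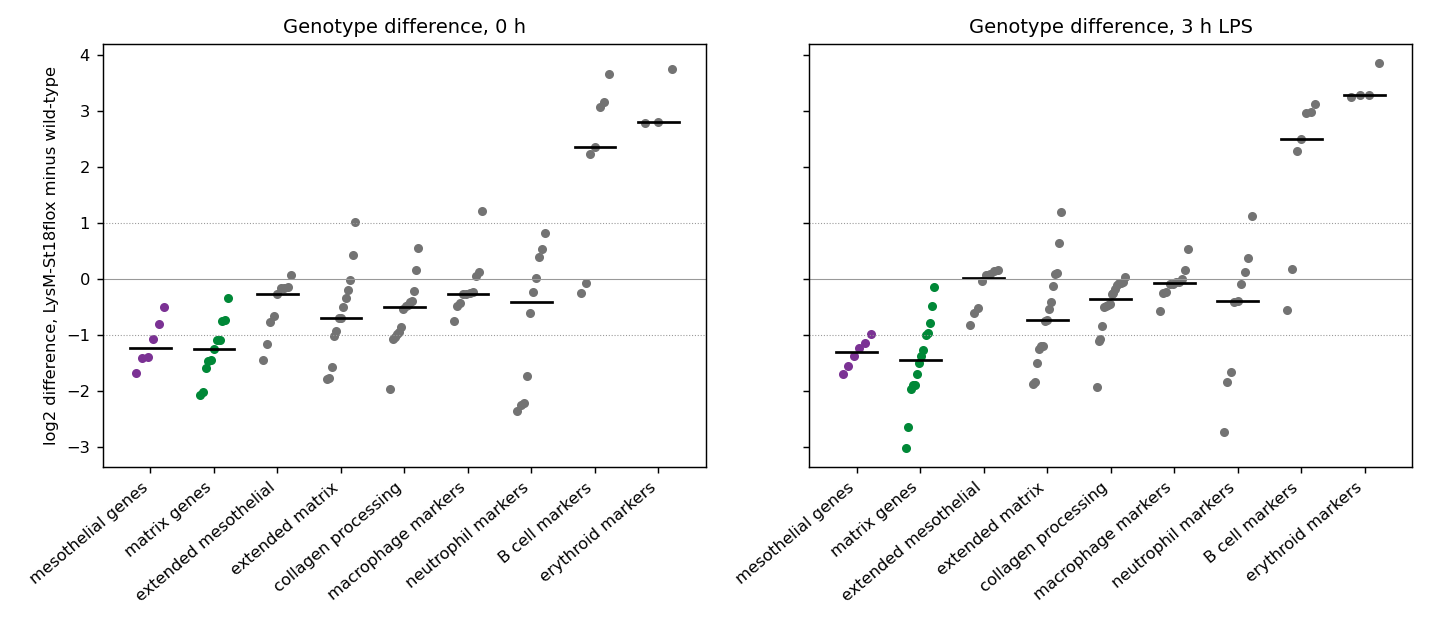
Log2 genotype difference (LysM-St18flox minus wild-type) at 0 h (left) and 3 h (right) of each measured gene (points) by list, with the list's median as a bar and dotted lines at 2-fold. The mesothelial and matrix members lie below 0, with medians from -1.23 to -1.45, and B cell and erythroid markers have medians of 2.36 and 2.79 at 0 h and 2.48 and 3.28 at 3 h.

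Markers of other cells moved with the genotype in the same samples, and their part in the members' differences was not tested. The summed linear signal of the 9 B cell markers, in multiples of the array's 75th percentile, was 6.34 and 4.67 in wild-type cells at 0 h and 3 h, against 24.8 and 19.8 in LysM-St18flox cells. Of the 7 B cell markers measured at each time, 5 were at least 2-fold higher with LysM-St18flox, against 3.04% and 1.82% of all measured genes. Pax5 (-0.26 and -0.56) and Cd22 (-0.07 and 0.18) were not. Of the erythroid markers measured on both arrays, 3 of 3 at 0 h and 4 of 4 at 3 h were at least 2-fold higher with LysM-St18flox, with medians of 2.79 and 3.28. The 11 neutrophil markers summed to 81.2 and 112 in wild-type and 34.6 and 39.0 in LysM-St18flox cells, with Ngp above background on no array. At 0 h 4 of 10 measured neutrophil markers were at least 2-fold lower and none higher, and at 3 h 3 of 9 were lower and 1 higher. Of all measured genes, 3.03% and 1.4% were lower by that margin at these times. Lcn2 was at -2.37 at 0 h and -1.67 at 3 h, S100a9 at -2.25 and -2.74, and S100a8 at -1.73 and -1.84. Cxcr2 was at -2.22 at 0 h, while Retnlg was at 0.81 and 1.11. Camp, Ltf and Mmp8 were above 0 at 0 h and below 0 at 3 h, and the list medians were -0.42 and -0.41. The defining markers of the lining are members themselves, so their sums restate the members' values. The 4 defining mesothelial markers summed to 0.92 and 0.91 against 0.47 and 0.32, and the 4 defining fibroblast markers to 4.03 and 5.0 against 1.83 and 1.76. Macrophage markers summed to between 616 and 792 on the 4 arrays. Of the 8 endothelial markers, none of the measured ones was 2-fold apart by genotype at either time. By bounds at 0 h, Emcn was at least 10.8-fold lower and Egfl7 at least 2.04-fold higher with LysM-St18flox. Emcn was above background on the wild-type 0 h array alone, and Tek and Cldn5 on no array.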

How the data were processed

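Deposited spot intensity values are Agilent Feature Extraction 11.0.1.1 output of 1-colour Cy3 arrays, background-subtracted and detrended but not normalized between arrays (per the file headers). The deposited value table holds log2 values. Its normalization is not stated, and its 4 columns hold the same sorted values to within 0.000362. Probe accessions were matched to RefSeq (GRCm38.p6) for names: 32994 of 56605 probes had 1 symbol. The headers name build mm9, so no probe coordinates are given.

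From the intensities, log2 signals of one probe's spots were averaged, without control and outlier-flagged spots, and each array's 75th percentile over non-control spots (672 to 1067 units) was subtracted. The brightest probe stands for a gene. For a bound, the dim side took its own value or the lowest value above background, whichever was higher. Since each group is 1 array, there are no p-values. The members, lists and naming rule were chosen with earlier results of these data known. The rule names every member, and up to 4 genes of another list per comparison. Lox, Bnc1, Thy1, Plod3, P4hb, Emcn, Egfl7, Ildr2, Efemp1, Cdh3, Camp, Ltf, Mmp8, Pax5 and Cd22 were named after their values were seen. Outside the rule, Tek, Cldn5, Ngp, Myh11, Cnn1, Epcam, Krt5 and Krt20 were also named, as above background on no array. Aldh1a2 falls under the rule for the LysM-St18flox LPS response only. The steps, in Python 3.11.15 and limma 3.58.1, were tested on simulated data. The 11 alternatives are in the closing section. A single marker gene is not reported here.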

Additional observations from a re-analysis of the deposited data

Results flagged for a closer look

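The LPS responses of 3 members lay on opposite sides of 0 in the genotypes, each by more than 0.115, which is 2 standard deviations of a difference between single spots. These differences between genotypes were not tested, since each group is 1 array. Wt1 was at 0.25 in wild-type and -0.49 in LysM-St18flox cells. Col1a2 was at 0.24 and -0.52. Sparc was at 0.83 and -0.54 by its brighter probe, and its second probe gave -0.45 and -0.71, on the same side of 0 in both genotypes. All 3 wild-type responses use the wild-type 0 h array.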

How the results depend on the processing

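No paired analysis was possible because each group has 1 array, and for the same reason no array could be left out. A value was taken as unchanged where it moved by less than 1.5 times. Over the alternatives run, the median genotype difference of the mesothelial genes ranged from -1.31 to -0.82 at 0 h and from -1.39 to -0.96 at 3 h, and that of the matrix genes from -1.31 to -1.06 and from -1.54 to -1.37. None of the 8 list medians moved by 1.5 times. Counts of members at least 2-fold apart did move, in part with fewer or more members compared and in part with the same ones. The cause was not tested for the latter. With the second brightest probe, 2 of 2 members were lower at 0 h (12 with the brightest) and 3 of 4 at 3 h (15). After LPS none was higher in wild-type cells (2 with the brightest), and none was higher (1) or lower (1) in LysM-St18flox cells. With no background filter, 1 member was higher by genotype at 0 h and 1 at 3 h. After LPS, 1 was then lower and 5 higher in wild-type cells, and 6 lower and 4 higher in LysM-St18flox cells. With bounds included, 1 member was higher by genotype at 3 h (Postn), and 5 and 3 were higher after LPS in wild-type and LysM-St18flox cells. The 2 members higher after LPS in wild-type cells became 0 with normexp correction and in the deposited value table, and 1 with the percentile over probes detected on all arrays. The 1 member lower in LysM-St18flox cells (Mgp) became 0 with normexp, with quantile normalization, with a minimum of 50 units, which leaves it out, and in the deposited table. The 1 higher (Cav1) became 0 in the deposited table. That table lists the probes of 16 members and leaves out Cyp1b1, Loxl1 and Cav1, so their LPS responses could not be compared there. Taking the mean of all measured probes, keeping outlier spots or leaving out Postn moved no count by 1.5 times. Of 31 differences of single members past 2-fold, tried under up to 11 alternatives, 288 of 305 values stayed past 2-fold in the same direction and none changed sign. Signals close to background limit Upk3b, Lrrn4, Krt7, Pdgfra and Cyp1b1, whose differences are bounds or rest on dim spots.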

Other observations

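Genes of blood vessel and smooth muscle cells, which also lie in the peritoneal wall, were read by genotype. List medians were -0.23 at 0 h and 0.33 at 3 h for endothelial markers and -0.28 and -0.25 for smooth muscle markers. These medians rest on 3 and 5 measured endothelial genes and on 3 smooth muscle genes at each time. Because the members were chosen on these arrays, setting their medians against these would restate that choice, and no such comparison was tested. Single genes lay further from 0, such as Egfl7 at 0.90 at 3 h, in the direction opposite to the measured members. Cdh5, which encodes the endothelial cadherin, was above background at 3 h alone, at -2.60 in wild-type and -1.94 in LysM-St18flox cells, and was at least 2.92-fold and 4.58-fold higher after LPS. Emcn, which encodes endomucin, was above background at wild-type 0 h alone (-0.70), and its bound is 10.8-fold lower with LysM-St18flox. Acta2, which encodes smooth muscle actin, read 5.16 and 5.69 in wild-type cells, against 5.15 and 5.44 in LysM-St18flox cells, a genotype difference of -0.01 at 0 h and -0.25 at 3 h. Tagln, another gene of contractile cells, differed by -0.63 and -0.25. The smooth muscle genes Myh11 and Cnn1 were not above background on any array. Of 4 genes of other epithelia, Epcam, Krt5 and Krt20 were not above background on any array, and Cdh1 differed by -0.52 at 0 h and 0.27 at 3 h.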
